A study of Homo sapiens with 12 samples.

Results

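Homologous recombination and Fanconi anemia repair genes were followed in Ewing sarcoma cells that lose RRM1, the large subunit of ribonucleotide reductase. They comprise 41 genes, taken by symbol from a gene list, and all 41 are among the 20771 genes of the count table. All 41 also passed the filter on low counts, which kept 16515 genes. RNA was sequenced from EW8-RRM1-KO and TC71-RRM1-KO, lines made from EW8 and TC71, which are both established Ewing sarcoma cell lines. In both lines, and in every group compared here, the endogenous RRM1 gene was targeted with Cas9 and 1 guide, and a codon-optimized RRM1 transgene was driven by a doxycycline-dependent promoter. Cells were grown in DMEM with 10% FBS. The 4 groups were EW8 labelled 0 h (doxycycline present), EW8 labelled 48 h (doxycycline removed), TC71 labelled 0 h and TC71 labelled 48 h, with 3 replicate libraries each. The knockout lines were single-cell cloned, so a difference between EW8 and TC71 is a difference between 2 cloned lines. The labels do not say that replicates came from separate cultures, so p-values measure only the spread between these libraries, which may be technical.

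Homologous recombination copies the sister chromatid to mend a double-strand break. The MRN nuclease with CtIP and EXO1 cuts back the broken ends, the BRCA1-BARD1, PALB2 and BRCA2 proteins prepare the single strand for pairing with the sister, the BCDX2 and CX3 complexes and the RAD54 proteins assist strand exchange, and helicases and nucleases such as BLM and MUS81-EME1 take the joined molecules apart. The Fanconi pathway removes links between the DNA strands: a core complex containing the FANCL ubiquitin ligase marks FANCD2 and FANCI, and nucleases held by SLX4 then act. Other members let forks pass damage (RAD18, POLH, REV3L), remodel stalled forks (SMARCAL1) or join ends by short homologies (POLQ). Ribonucleotide reductase makes the deoxyribonucleotides that replication and repair synthesis need.

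Total counts per library lay between 18468485 and 35698991, with a median of 24255852.5, and the common biological coefficient of variation was 4.17%. Chi-square per gene between 2 replicate libraries was 1.80 to 3.89 in the other 3 groups and 4.16 to 7.54 in TC71 at 48 h, where replicate 3 stood farthest from the others (6.28 and 7.54). Without that library 27 of the 41 members were called up and 2 down in TC71. The counts of RRM1 itself rose in the libraries labelled 48 h, from 9.37, 9.51 and 9.67 to 63.9, 72.6 and 74.1 CPM (counts scaled to a common library size) in EW8 and from 15.7, 15.5 and 17.3 to 25.7, 26.4 and 24.1 CPM in TC71. A codon-optimized transgene need not be counted as RRM1, so these counts do not check the doxycycline labels, and the groups below are named by their labels. All 9 Ewing sarcoma markers examined were detected, with NKX2-2 at 7.33 to 17.9 CPM and CCND1 at 1083 to 1509 CPM. Of 8 markers of blood, epithelial, endothelial and muscle cells, 3 were in the table, and their highest level in any library was 1.60 CPM.

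Repair genes rose more often than they fell after 48 h in both lines, and most of their changes were small. In EW8, 21 of 41 members increased, 10 decreased and 10 were not called, at a Benjamini-Hochberg adjusted p below 0.05 in edgeR's quasi-likelihood test. Of all genes tested in EW8, 68.6% were called, 37.0% higher and 31.6% lower. In TC71, 29 members rose, 2 fell and 10 were not called, where 42.1% of all genes were called, 22.9% higher and 19.2% lower. The median log2 fold change of the members was 0.15 in EW8 and 0.34 in TC71, beside medians of 0.03 and -0.00 over all genes tested. In the reported fit only POLQ and HELQ passed 2-fold, both in EW8, where 13.9% of all genes rose and 3.35% fell by that much. No member passed 2-fold in TC71 in that fit, where 3.26% of all genes rose and 0.854% fell by that much. This count depended on the setting, and over the alternatives EXO1 reached a log2 fold change of 1.06 in EW8 and 1.0004 in TC71. The 3 libraries labelled 48 h did not overlap with the 3 labelled 0 h for 33 members in EW8 and for 29 in TC71, against 71.1% and 49.6% of all genes. Scaling by total counts alone moved the median of all genes in EW8 from 0.03 to 0.16. Under that scaling 24 members were called up and 6 down for EW8, and 33 up and 1 down for TC71. In EW8 it ended the calls of PALB2 (log2 -0.02, edgeR adjusted p = 0.824), RAD51D (-0.30, 0.0734), XRCC2 (-0.13, 0.0697) and FANCC (-0.06, 0.417) and called BARD1 (0.19, 0.00435), RAD51B (0.38, 0.00723) and RAD54L (0.20, 0.00195) higher. In TC71 it ended the call of NBN (log2 -0.09, edgeR adjusted p = 0.125) and called FANCC (0.16, 0.0158), SLX4 (0.25, 0.0244), MUS81 (0.16, 0.0395) and REV3L (0.13, 0.0479) higher. Upper-quartile factors ended the EW8 calls of RAD51C, FANCG and EME1 (edgeR adjusted p = 0.0603, 0.194 and 0.121). DESeq2's size factors (edgeR adjusted p = 0.0663 and 0.0504) and DESeq2's Wald test (adjusted p = 0.087 and 0.0824) also ended those of FANCG and EME1. Of 21 alternatives that kept the threshold, 2 kept the EW8 call of FANCG and 9 that of EME1. Over all genes total counts alone called 7207 up and 4031 down in EW8, in place of 6103 and 5226, and 4631 up and 2345 down in TC71, in place of 3776 and 3179.

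**Figure D1:**
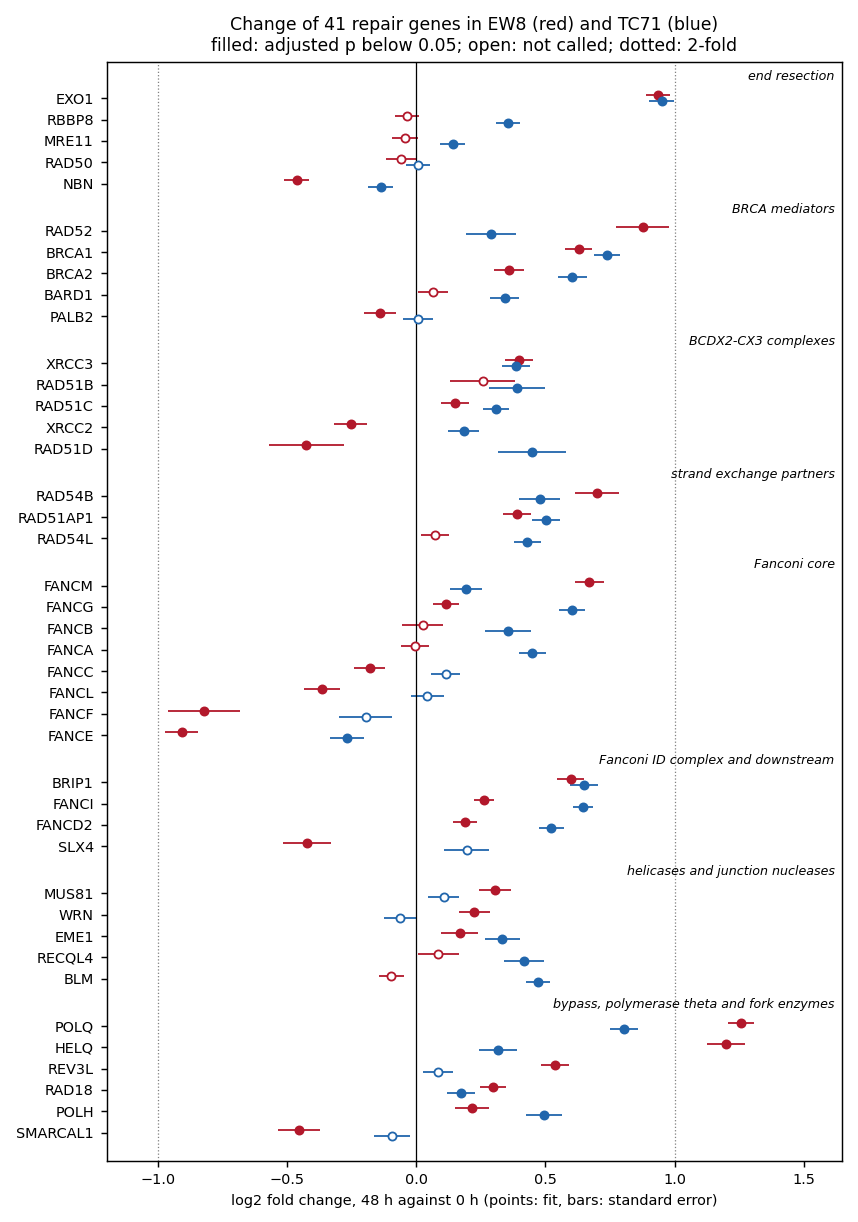
Log2 fold change of each of the 41 genes (libraries labelled 48 h against 0 h; horizontal axis), grouped by role, in EW8 (red) and TC71 (blue). Points are fitted values, bars are standard errors, filled points passed an adjusted p of 0.05, and only POLQ and HELQ in EW8 lie beyond the dotted 2-fold lines.

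POLQ, HELQ and EXO1 had the highest log2 fold changes in EW8. POLQ encodes DNA polymerase theta, the enzyme of theta-mediated end joining, and lies at chr3:121431431-121545988, minus strand. It measured 66.5, 64.6 and 66.5 CPM in EW8 at 0 h and 147, 167 and 158 CPM at 48 h, a 2.39-fold rise (log2 fold change 1.26 ± 0.05 SE, edgeR adjusted p = 3.14e-21). In TC71 it went from 33.4, 33.8 and 34.6 to 56.4, 63.5 and 57.98 CPM, 1.75-fold (log2 fold change 0.80 ± 0.06, edgeR adjusted p = 7.37e-14). Every 48 h library of a line was above every 0 h library of that line. On this scaling all EW8 libraries at 0 h were also above all TC71 libraries at 48 h. That order between the lines was not tested and does not hold with total counts alone. HELQ, a helicase that unwinds DNA at stalled forks and breaks, lies at chr4:83407343-83455855, minus strand. Its level in EW8 was 16.2, 14.7 and 14.6 CPM at 0 h and 33.3, 35.2 and 35.8 CPM at 48 h, 2.30-fold (log2 fold change 1.20 ± 0.07, edgeR adjusted p = 5.34e-16). In TC71 its level was 18.5, 20.01 and 16.4 CPM at 0 h and 20.9, 22.8 and 24.4 CPM at 48 h, 1.25-fold (log2 fold change 0.32 ± 0.07, edgeR adjusted p = 0.00071). HELQ and MRPS18C start 77 bases apart in opposite directions, and MRPS18C, a mitochondrial ribosomal protein gene, was not called in either line (log2 fold changes 0.09 and -0.01).

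The promoter windows of these genes are shown because POLQ and HELQ were the 2 members past 2-fold and EXO1 was next. EXO1 was added after its values were seen. Each window runs from 250 bases before to 50 bases after a RefSeq start on GRCh38.p14, reads 5′ to 3′ along the gene, and has in capitals the letters TTTGAA of the cell cycle genes homology region (CHR), CCAAT (bound by NF-Y) or an E2F word, on either strand.
POLQ, chr3:121545939-121546238, minus strand: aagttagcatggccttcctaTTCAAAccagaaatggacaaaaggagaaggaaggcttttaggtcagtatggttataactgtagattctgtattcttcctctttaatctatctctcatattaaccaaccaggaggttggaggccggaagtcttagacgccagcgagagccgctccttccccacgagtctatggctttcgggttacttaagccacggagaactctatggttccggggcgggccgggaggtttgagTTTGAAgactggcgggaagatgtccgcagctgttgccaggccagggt
HELQ, chr4:83455834-83456133, minus strand: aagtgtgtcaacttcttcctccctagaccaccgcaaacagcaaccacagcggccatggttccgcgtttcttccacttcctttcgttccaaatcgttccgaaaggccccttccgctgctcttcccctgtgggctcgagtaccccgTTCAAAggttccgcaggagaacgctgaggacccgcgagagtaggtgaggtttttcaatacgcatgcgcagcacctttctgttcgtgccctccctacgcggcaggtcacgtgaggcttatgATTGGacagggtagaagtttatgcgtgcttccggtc
EXO1, chr1:241847954-241848253, plus strand: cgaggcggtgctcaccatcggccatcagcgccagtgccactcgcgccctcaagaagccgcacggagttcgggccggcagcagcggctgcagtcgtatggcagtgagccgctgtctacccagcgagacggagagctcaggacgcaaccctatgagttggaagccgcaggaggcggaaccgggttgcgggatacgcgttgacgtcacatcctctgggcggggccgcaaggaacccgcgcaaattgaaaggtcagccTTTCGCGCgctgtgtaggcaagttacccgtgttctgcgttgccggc
The POLQ window holds CHR letters at -230 and at 4 relative to the start, and the HELQ window holds CHR letters at -106 and CCAAT letters at 15. In a second RefSeq window of HELQ, chr4:83455774-83456073, the same matches lie at -166 and -46. The EXO1 window holds an E2F word at 5, and a second RefSeq window of EXO1 holds none of the motifs searched.

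Among the 5 end resection genes EXO1 rose and NBN fell in both lines. EXO1, the exonuclease of long-range resection (chr1:241847967-241895148, plus strand), went from 106, 107 and 110.1 to 196, 215 and 207 CPM in EW8. In TC71 it went from 79.1, 74.9 and 75.7 to 138, 155 and 151 CPM. The 2 fold changes were 1.91 and 1.93 (log2 0.94 ± 0.05 and 0.95 ± 0.05 SE, edgeR adjusted p = 9.8e-19 and 1.59e-17), and the difference between the lines was -0.01 ± 0.07 (edgeR adjusted p = 0.877). NBN, the damage-sensing subunit of MRN (chr8:89924515-90003228, minus strand), fell in EW8 from 134, 124 and 130.3 to 91.8, 98.1 and 91.96 CPM (log2 -0.46 ± 0.05, edgeR adjusted p = 4.01e-10). In TC71 it was 133, 128 and 133 CPM at 0 h and 109.96, 128 and 119.8 CPM at 48 h, groups that overlapped (log2 -0.14 ± 0.05, edgeR adjusted p = 0.0195). That TC71 call was lost without 0 h replicate 1 (edgeR adjusted p = 0.0721), 0 h replicate 3 (0.0707) or 48 h replicate 1 (0.186). RBBP8, which encodes CtIP, the partner of MRN that starts resection, was 125, 116 and 123 CPM at 0 h and 117, 124 and 115 CPM at 48 h in EW8, overlapping groups. In TC71 it rose from 93.2, 87.8 and 95.4 to 111, 121 and 122 CPM (log2 0.36 ± 0.05, edgeR adjusted p = 2.23e-07). The nuclease subunit gene MRE11 was not called in EW8 (log2 -0.04) and rose slightly in TC71 (log2 0.14, edgeR adjusted p = 0.0174). The TC71 call of MRE11 was lost without 0 h replicate 1, 48 h replicate 2 or 48 h replicate 3 (edgeR adjusted p = 0.0608, 0.108 and 0.072). RAD50, the ATPase subunit, was not called in EW8 (log2 -0.06) or TC71 (log2 0.01). Leaving out EW8 0 h replicate 2 gave RAD50 a log2 fold change of -0.14 in EW8 (edgeR adjusted p = 0.0333).

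Of the mediators, BRCA1 and BRCA2 rose in both lines. BRCA1, the ubiquitin ligase that promotes resection (chr17:43044295-43170245, minus strand), went from 40.7, 36.7 and 36.8 to 57.8, 60.4 and 58.2 CPM in EW8 (log2 0.63 ± 0.05 SE, edgeR adjusted p = 1.45e-12). In TC71 it went from 38.1, 39.1 and 39.6 to 63.4, 65.5 and 65.9 CPM (log2 0.74 ± 0.05, edgeR adjusted p = 1.03e-13). Its 0 h libraries overlapped between the lines. BRCA2, which binds single-stranded DNA at the resected ends, was 43.3, 41.3 and 38.1 CPM at 0 h and 50.2, 56.5 and 50.02 CPM at 48 h in EW8 (log2 0.36 ± 0.06). In TC71 it was 41.98, 44.97 and 44.1 CPM at 0 h and 65.2, 69.7 and 64.1 CPM at 48 h (log2 0.60 ± 0.06, edgeR adjusted p = 1.2e-10). RAD52, an annealing protein, rose in EW8 from 7.05, 8.02 and 7.41 to 14.1, 14.3 and 12.7 CPM (log2 0.88 ± 0.10, edgeR adjusted p = 2.22e-09). Its TC71 groups overlapped, at 8.16, 7.55 and 9.68 CPM at 0 h and 10.7, 11.2 and 9.31 CPM at 48 h (log2 0.29 ± 0.10, edgeR adjusted p = 0.0175). The TC71 call of RAD52 was lost without 0 h replicate 1, 0 h replicate 2 or 48 h replicate 2 (edgeR adjusted p = 0.078, 0.108 and 0.0877). BARD1, the partner of BRCA1, rose in TC71 (log2 0.34) and was not called in EW8 (log2 0.06) except with total counts alone. PALB2, which links BRCA1 to BRCA2, was not called in TC71 (log2 0.01) and was called lower in EW8 (log2 -0.14, edgeR adjusted p = 0.045). The EW8 call of PALB2 was lost on leaving out EW8 0 h replicate 1 or 3 or EW8 48 h replicate 1 or 3 (edgeR adjusted p between 0.0528 and 0.17), with total counts alone, as given above, and in DESeq2's Wald test (adjusted p = 0.0513).

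RAD51B, RAD51C, RAD51D, XRCC2 and XRCC3, the 5 subunits of the BCDX2 and CX3 complexes that assist strand exchange, all rose in TC71. In EW8, 2 rose, 2 fell and 1 was not called. Of all genes 22.9% rose in TC71, and 37.0% rose and 31.6% fell in EW8. RAD51D (chr17:35092221-35121522, minus strand) was 5.34, 4.75 and 4.67 CPM at 0 h and 4.41, 3.11 and 3.47 CPM at 48 h in EW8 (log2 -0.43 ± 0.15 SE, edgeR adjusted p = 0.0102). In TC71 it was 3.54, 4.85 and 3.72 CPM at 0 h and 5.0001, 5.56 and 5.75 CPM at 48 h (log2 0.45 ± 0.13, edgeR adjusted p = 0.00625). So its EW8 libraries were lower at 48 h and its TC71 libraries higher, on few reads, 62 to 186 counts a library. The EW8 call was lost without 48 h replicate 2 (edgeR adjusted p = 0.0805) and the TC71 call without 0 h replicate 1 (0.0623). XRCC2 also fell in EW8 (log2 -0.25 ± 0.06) and rose in TC71 (log2 0.18 ± 0.06, edgeR adjusted p = 0.014). The TC71 call of XRCC2 was lost without 0 h replicate 2 or 48 h replicate 2 (edgeR adjusted p = 0.151 and 0.123). XRCC3 rose by nearly the same amount in both lines, from 75.6, 79.7 and 76.3 to 109, 98.7 and 97.6 CPM in EW8 and from 58.3, 65.7 and 60.03 to 85.2, 74.4 and 80.7 CPM in TC71 (log2 0.40 and 0.39). On the opposite strand KLC1 covers 76.7% of the exon bases of XRCC3, and KLC1 rose in EW8 (log2 0.36) and was not called in TC71 (0.06). Opposite-strand genes of the table also share 19.9% of the exon bases of RAD54L, 19.6% of FANCA, 16.4% of EME1 and 13.9% of MUS81. The sources used here do not say whether counting used strand, and the part of these neighbours in the counts was not tested. RAD51B was 4.64, 4.70 and 4.70 CPM at 0 h and 5.16, 6.52 and 5.09 CPM at 48 h in EW8, not called (log2 0.26, edgeR adjusted p = 0.0677). It was called there without EW8 48 h replicate 1 or 3 (edgeR adjusted p = 0.0496 and 0.0438). In TC71 RAD51B rose from 6.07, 5.88 and 6.08 to 7.25, 8.69 and 7.73 CPM (log2 0.39 ± 0.11). RAD51C rose in TC71 (log2 0.31) and in EW8 (log2 0.15, edgeR adjusted p = 0.0162). The EW8 call of RAD51C was lost without EW8 0 h replicate 1 or 2 or EW8 48 h replicate 2 or 3 (edgeR adjusted p between 0.0636 and 0.165).

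The strand exchange partners all rose in TC71, where 22.9% of all genes rose, and 2 of 3 rose in EW8, where 37.0% did. RAD51AP1, which stimulates joint molecule formation, went from 43.7, 41.8 and 44.4 to 55.9, 58.6 and 56.1 CPM in EW8 (log2 0.39 ± 0.05 SE). In TC71 it went from 32.8, 33.1 and 35.6 to 46.99, 49.7 and 47.01 CPM (log2 0.50 ± 0.05). RAD54B, a translocase of the RAD54 family, rose from 10.8, 9.34 and 10.004 to 15.6, 17.4 and 16.1 CPM in EW8 (log2 0.70 ± 0.08) and from 11.5, 11.1 and 11.9 to 15.6, 15.4 and 17.04 CPM in TC71 (log2 0.48 ± 0.08). FSBP shares 66% of the exon bases of RAD54B on the same strand and also rose, by 2.40 on the log2 scale in EW8 and 0.74 in TC71, so the reads of these 2 genes cannot be told apart where they overlap. RAD54L, the main RAD54 translocase, was not called in EW8 (log2 0.07) except with total counts alone, and rose in TC71 (log2 0.43, edgeR adjusted p = 3.14e-08).

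The Fanconi core genes held the steepest falls. In EW8 4 of 8 fell and 2 rose, while in TC71 4 rose and 1 fell. FANCE, the subunit that contacts FANCD2 (chr6:35452338-35467104, plus strand), fell in EW8 from 64.3, 72.8 and 66.6 to 37.2, 35.99 and 35.1 CPM, 1.88-fold (log2 -0.91 ± 0.06 SE, edgeR adjusted p = 1.39e-14). In TC71 it fell from 37.1, 39.7 and 31.7 to 30.7, 29.2 and 30.1 CPM (log2 -0.27 ± 0.07, edgeR adjusted p = 0.00122). At 48 h the EW8 level lay within the range of the TC71 libraries at 0 h. FANCF, the adaptor subunit, fell in EW8 from 5.21, 6.59 and 7.35 to 3.67, 3.61 and 3.67 CPM (log2 -0.82 ± 0.14, edgeR adjusted p = 3.63e-06). In TC71 it was 10.5, 10.7 and 11.7 CPM at 0 h and 8.86, 11.04 and 8.88 CPM at 48 h, not called (log2 -0.20, edgeR adjusted p = 0.124). Leaving out TC71 48 h replicate 2 gave FANCF a call there (log2 -0.31, edgeR adjusted p = 0.0171). FANCL, the ubiquitin ligase, fell in EW8 (log2 -0.36) and was not called in TC71 (log2 0.04). FANCC fell in EW8 (log2 -0.18, edgeR adjusted p = 0.00888), a call lost without EW8 48 h replicate 3 (0.071) and with total counts alone (log2 -0.06, edgeR adjusted p = 0.417), and was not called in TC71 (log2 0.11).

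FANCG, FANCA and FANCB rose in TC71, and FANCM, the translocase that brings the core complex to DNA, rose more in EW8. FANCG went from 43.3, 46.1 and 47.7 to 70.9, 70.3 and 67.1 CPM in TC71 (log2 0.60 ± 0.05 SE, edgeR adjusted p = 8.67e-12). In EW8 it was 56.7, 61.01 and 56.4 CPM at 0 h and 62.8, 62.6 and 62.7 CPM at 48 h (log2 0.11 ± 0.05, edgeR adjusted p = 0.0469). That EW8 call was lost on leaving out any single library, of either line (edgeR adjusted p between 0.0544 and 0.38). FANCA, a core subunit named for the most frequent Fanconi anemia group, was 54.8, 54.4 and 49.04 CPM at 0 h and 51.999, 53.6 and 51.4 CPM at 48 h in EW8, overlapping groups (log2 -0.01). In TC71 FANCA rose from 56.8, 61.6 and 59.7 to 84.8, 80.6 and 77.5 CPM (log2 0.45 ± 0.05, edgeR adjusted p = 9.8e-09). FANCB was not called in EW8 (log2 0.02) and rose in TC71 (log2 0.35). FANCM rose by 0.67 in EW8 and by 0.19 in TC71 on the log2 scale, and its TC71 call was lost without 0 h replicate 2 or 48 h replicate 3 (edgeR adjusted p = 0.0574 and 0.106).

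FANCI, FANCD2 and BRIP1 rose in both lines. FANCI, the partner of FANCD2 on DNA (chr15:89243945-89317261, plus strand), went from 204, 192 and 209 to 239.8, 248 and 238 CPM in EW8 (log2 0.26 ± 0.04 SE, edgeR adjusted p = 3.74e-07). In TC71 it went from 175, 173 and 177 to 272, 274 and 276 CPM (log2 0.64 ± 0.04, edgeR adjusted p = 2.87e-15). On this scaling FANCI started lower in TC71 than in EW8 and ended higher. With total counts alone its difference at 0 h was not called (log2 0.07, edgeR adjusted p = 0.0869). FANCD2, the clamp subunit that the core complex marks with ubiquitin, was 120.4, 114 and 123 CPM at 0 h and 134, 142 and 132 CPM at 48 h in EW8 (log2 0.19 ± 0.05). In TC71 it was 64.6, 67.1 and 68.7 CPM at 0 h and 93.6, 101 and 93.5 CPM at 48 h (log2 0.52 ± 0.05). BRIP1, the FANCJ helicase that binds BRCA1, rose from 84.7, 76.8 and 77.9 to 113, 128 and 121 CPM in EW8 (log2 0.60 ± 0.05) and from 49.8, 49.6 and 53.5 to 75.8, 84.3 and 79.7 CPM in TC71 (log2 0.65 ± 0.05). SLX4, the scaffold of junction nucleases, fell in EW8 from 13.1, 14.6 and 13.1 to 10.7, 9.73 and 9.94 CPM (log2 -0.42 ± 0.09, edgeR adjusted p = 0.000159). In TC71 SLX4 was 10.9, 13.7 and 11.2 CPM at 0 h and 13.7, 12.9 and 14.1 CPM at 48 h, not called (log2 0.20, edgeR adjusted p = 0.0685), and it was called higher without 0 h replicate 2 (0.00979).

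Among the helicases and junction nucleases, 3 of 5 rose and none fell in each line (EME1 in both, MUS81 and WRN in EW8, BLM and RECQL4 in TC71). BLM, the RecQ helicase that dissolves double Holliday junctions (chr15:90717346-90816166, plus strand), was 74.9, 72.4 and 77.3 CPM at 0 h and 70.1, 71.8 and 68.3 CPM at 48 h in EW8, not called (log2 -0.10 ± 0.05 SE, edgeR adjusted p = 0.0715). Of the scalings tried, DESeq2's size factors and upper-quartile factors called BLM lower in EW8 (log2 -0.11 and -0.14, edgeR adjusted p = 0.0492 and 0.0087), as did leaving out EW8 0 h replicate 1 or 2 (edgeR adjusted p = 0.031 and 0.00608). In TC71 BLM rose from 57.3, 58.5 and 59.6 to 77.7, 84.5 and 80.7 CPM (log2 0.47 ± 0.05, edgeR adjusted p = 7.32e-10). RECQL4 was 90.003, 107 and 94.6 CPM at 0 h and 108, 100.1 and 100.2 CPM at 48 h in EW8, overlapping groups, and rose from 90.5, 101 and 88.99 to 138, 111 and 125 CPM in TC71 (log2 0.09 and 0.42). WRN, a helicase with exonuclease activity, rose in EW8 from 66.1, 58.4 and 61.2 to 67.4, 77.7 and 72.1 CPM (log2 0.22 ± 0.06). WRN was 39.6, 35.99 and 39.1 CPM at 0 h and 34.8, 39.98 and 35.4 CPM at 48 h in TC71, not called (log2 -0.06). MUS81, the catalytic subunit of a junction nuclease, rose from 31.7, 37.5 and 34.8 to 43.1, 40.7 and 44.2 CPM in EW8 (log2 0.30 ± 0.06) and was 33.3, 36.97 and 35.6 CPM at 0 h and 39.4, 37.9 and 36.6 CPM at 48 h in TC71, not called (log2 0.11). EME1, its partner, rose in TC71 (log2 0.33) and was called higher in EW8 (log2 0.17, edgeR adjusted p = 0.0397). That EW8 call was lost without EW8 0 h replicate 1, 2 or 3, EW8 48 h replicate 2 or TC71 0 h replicate 1 (edgeR adjusted p between 0.0501 and 0.358).

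Of the 6 bypass and fork genes, POLQ and HELQ included, 5 rose and SMARCAL1 fell in EW8, and 4 rose and none fell in TC71. The shares over all genes were 37.0% higher and 31.6% lower in EW8, and 22.9% higher and 19.2% lower in TC71. REV3L, the catalytic subunit of polymerase zeta (chr6:111299028-111483715, minus strand), rose in EW8 from 73.97, 67.996 and 69.8 to 96.3, 105 and 106 CPM (log2 0.54 ± 0.05 SE). In TC71 it was 46.7, 39.9 and 43.2 CPM at 0 h and 44.9, 47.03 and 45.98 CPM at 48 h, overlapping and not called (log2 0.08). POLH, polymerase eta, rose from 27.9, 27.8 and 27.5 to 32.5, 33.4 and 30.6 CPM in EW8 (log2 0.22 ± 0.07) and from 17.3, 19.3 and 16.96 to 23.2, 26.7 and 25.2 CPM in TC71 (log2 0.49 ± 0.07). RAD18, the ligase that marks PCNA at stalled forks, rose in EW8 (log2 0.30) and in TC71 (log2 0.17), the latter call being lost without 0 h replicate 1 or 48 h replicate 2 (edgeR adjusted p = 0.0674 and 0.0575). SMARCAL1, a fork-remodelling translocase, fell in EW8 (log2 -0.45 ± 0.08, edgeR adjusted p = 7.73e-06) and was not called in TC71 (log2 -0.10).

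**Figure D2:**
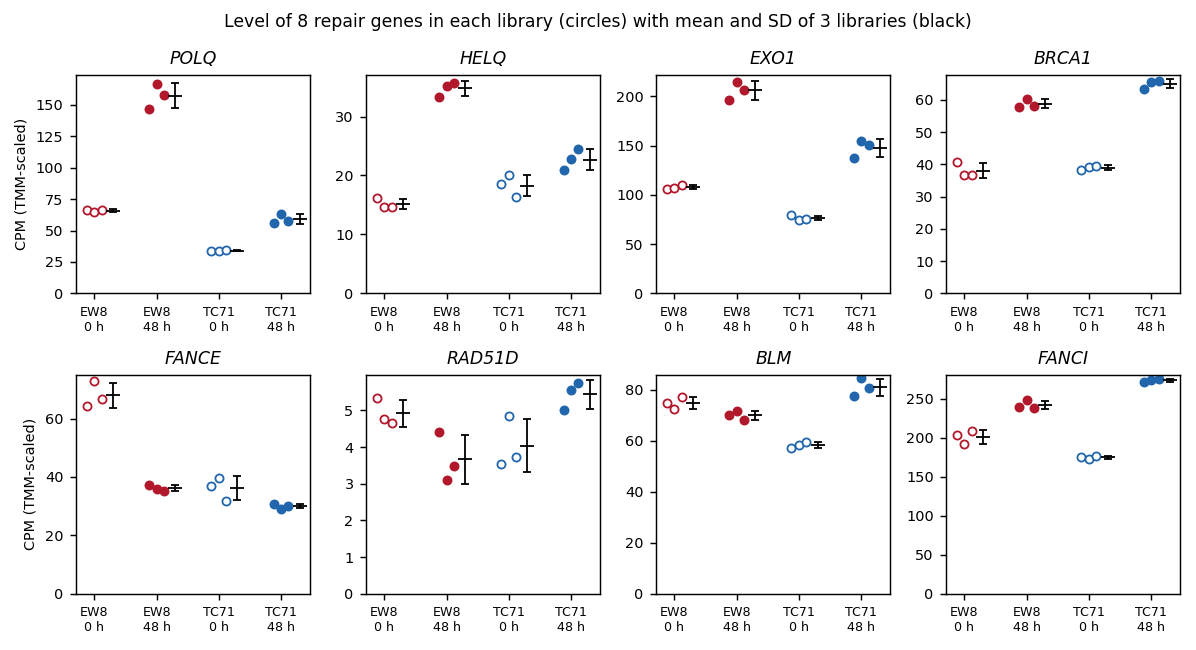
CPM (vertical axis, from 0) of 8 repair genes in each of the 12 libraries, in the order EW8 0 h, EW8 48 h, TC71 0 h, TC71 48 h. Circles are libraries and black bars the mean and SD of 3. The 48 h circles of POLQ, EXO1 and BRCA1 lie above the 0 h circles in both lines, whereas RAD51D and BLM rise in TC71 and do not in EW8.

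Side by side, 18 members rose in both lines, where 17.6% of all genes did, and 2, NBN and FANCE, fell in both, where 14.3% did. RAD51D and XRCC2 fell in EW8 and rose in TC71, where 1.60% of all genes did. A further 9 rose in TC71 and were not called in EW8 (MRE11, RBBP8, BARD1, RAD51B, RAD54L, FANCA, FANCB, BLM and RECQL4), where 3.69% of all genes did so. Tested directly as the difference of the 2 responses, 22 members had the lower response in EW8, against 22.4% of all genes, and 6 had the higher response (HELQ, RAD52, FANCM, REV3L, POLQ and WRN), against 25.7%, or 48.1% of all genes in either direction. With total counts alone these counts were 17 and 9. None of these differences exceeded 2-fold, where 7.28% of all genes were higher and 0.981% lower. The median difference was -0.25 over the members and 0.04 over all genes. The smallest p-values belonged to BLM (-0.57 ± 0.07 SE, edgeR adjusted p = 1.64e-08), HELQ (0.88 ± 0.11, 1.7e-08), FANCE (-0.64 ± 0.09, 4.87e-07), FANCI (-0.38 ± 0.06, 5.6e-07) and FANCG (-0.49 ± 0.07, 7.5e-07). By role, 7 of the 8 Fanconi core genes had the lower response in EW8 and FANCM the higher. For EXO1, BRCA1, XRCC3 and BRIP1, which rose in both lines, the difference was not called, with values of -0.01 ± 0.07, -0.11 ± 0.07, 0.01 ± 0.08 and -0.05 ± 0.07.

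At 0 h, before doxycycline removal, 17 members were higher in EW8 and 9 lower, against 32.8% and 32.9% of all genes, 65.7% in either direction, and the libraries did not overlap for 28 members and 68.3% of all genes. RAD50 was the one member past 2-fold, where 4.77% of all genes were higher in EW8 and 11.9% lower. It measured 38.8, 35.6 and 40.02 CPM in EW8 and 136, 129.9 and 127 CPM in TC71 (3.42-fold, log2 -1.77 ± 0.05 SE, edgeR adjusted p = 4.08e-25), and at 48 h it stood at 35.3, 38.05 and 36.8 CPM in EW8 and 124, 137 and 134 CPM in TC71. A second annotated gene, which is not in the count table, shares 76.9% of the RAD50 exon bases on the same strand, and how such reads were assigned is not given in the sources used here. POLQ was 1.94-fold, FANCE 1.88-fold, FANCD2 1.79-fold and REV3L 1.63-fold higher in EW8 (edgeR adjusted p = 8.91e-17, 1.04e-14, 5.12e-17 and 3.07e-13). With total counts alone 16 members were higher and 18 lower in EW8 at 0 h, as the median of all genes moved from -0.01 to -0.14. The calls of the 5 BRCA mediators at 0 h turned on the scaling and on single libraries. None was called with TMM factors, whereas total counts alone called BRCA1, PALB2, BRCA2 and RAD52 lower in EW8 (log2 -0.17, -0.18, -0.23 and -0.32, edgeR adjusted p = 0.00588, 0.0109, 0.000978 and 0.00953). Upper-quartile factors called BRCA2 and RAD52 lower (log2 -0.18 and -0.27, edgeR adjusted p = 0.00976 and 0.0312), and DESeq2's size factors called BARD1 higher (0.13, edgeR adjusted p = 0.0444). BARD1 was also called higher without EW8 0 h replicate 2 or EW8 48 h replicate 1 (edgeR adjusted p = 0.0328 and 0.0485). RAD52 was called lower without TC71 0 h replicate 2 (0.0427). Of the 26 members called at 0 h, 22 kept their call in all 19 alternatives, and FANCA, FANCI, RAD51C and RAD54B did not. Of the 15 not called, 3 stayed so in all.

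Per kilobase of exon, EXO1 was the highest member at 0 h in EW8 (26.02 ± 0.531), followed by RBBP8 (23.9 ± 0.917), RECQL4 (21.5 ± 1.98) and RAD51AP1 (16.9 ± 0.529 CPM per kb, mean ± SD, n = 3). RBBP8 and RECQL4 do not differ beyond their spread. RAD51D was the lowest, at 0.436 ± 0.0326 CPM per kb in EW8 and 0.358 ± 0.0632 in TC71. In TC71 RECQL4 (20.7 ± 1.42), EXO1 (18.5 ± 0.549) and RBBP8 (18.1 ± 0.77 CPM per kb) were the highest 3. These levels use the union of all annotated exons of a gene, which lowers the level of genes with long, little-used exons.

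**Figure D3:**
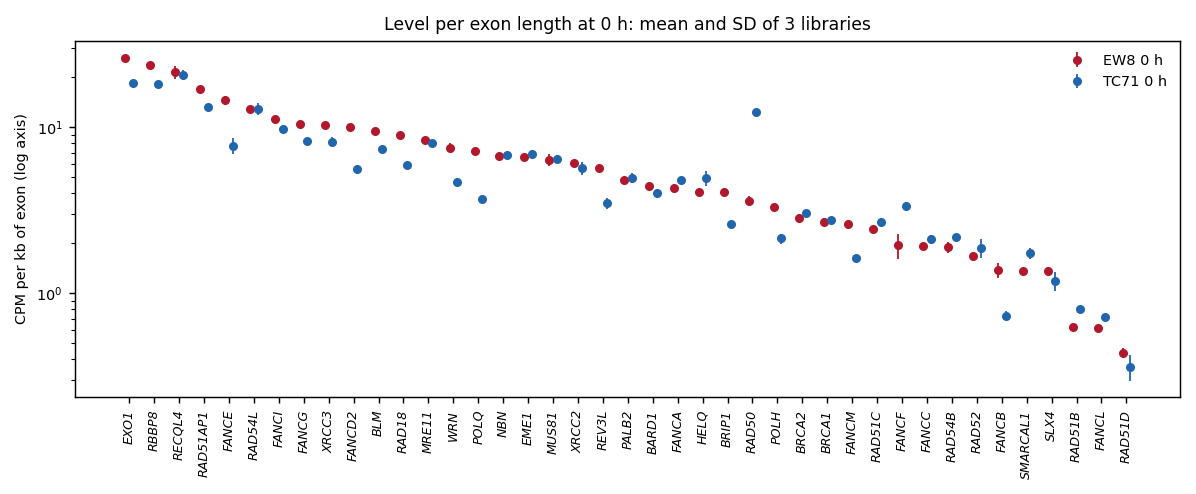
Level per exon length (CPM per kb, log axis) of the 41 genes in the libraries labelled 0 h, ordered by EW8 (red) with TC71 (blue); points are means and bars SDs of 3 libraries. RAD50 stands out as the gene whose TC71 point lies far above its EW8 point, and POLQ, FANCE and FANCD2 lie lower in TC71.

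Proteins that work with the members were examined through a list of 51 partner genes, 50 of them tested. In EW8 18 rose and 20 fell, with a median log2 fold change of -0.0028, and in TC71 26 rose and 4 fell, with a median of 0.17. The shares over all genes were 37.0% higher and 31.6% lower for EW8, and 22.9% higher and 19.2% lower for TC71. With total counts alone the balance of the partners in EW8 turned, to 22 risen and 14 fallen, and in TC71 29 rose and 3 fell. Past 2-fold in EW8 were HROB, which helps load the MCM8-MCM9 helicase (log2 1.29, 10.3, 10.8 and 10.6 to 26.2, 25.4 and 26.2 CPM), and the helicase gene RTEL1 (log2 1.04, on 13 to 50 counts). Lower by more than 2-fold in EW8 were the BRCA1-A complex subunits ABRAXAS1 (log2 -1.11, 22.7, 22.8 and 23.7 to 11.2, 9.93 and 10.96 CPM) and BABAM2 (log2 -1.11) and the ATPase FIGNL1 (log2 -1.01, 46.8, 41.9 and 45.2 to 23.5, 22.6 and 20.4 CPM). In TC71 ABRAXAS1 fell by 0.46, BABAM2 fell by 0.20 and FIGNL1 rose by 0.20 on the log2 scale, while HROB rose by 0.77. DMC1, which acts in meiotic strand exchange, passed 2-fold in TC71 on 5 to 25 counts (log2 1.22).

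S-phase genes of the Seurat list, leaving out 3 that are members, mostly had the lower response in EW8 (30 of 39 by the test of the difference, against 22.4% of all genes). In EW8 13 of 39 rose and 21 fell (33.3% and 53.8%, median log2 fold change -0.14), beside 37.0% and 31.6% of all genes. In TC71 33 rose and 3 fell (84.6% and 7.69%, median 0.39), beside 22.9% and 19.2% of all genes. RRM1 is 1 of these 39 genes and is counted as risen in both lines (log2 2.88 and 0.65). The summed level of the 39, RRM1 included, went from between 7373 and 7623 CPM to between 6643 and 6945 CPM in EW8. In TC71 it went from between 6059 and 6133 to between 7539 and 7873 CPM. The 54 G2/M genes had 16 up and 31 down in EW8 (29.6% and 57.4%, median -0.19) and 13 up and 22 down in TC71 (24.1% and 40.7%, -0.05). The summed level of the 41 members was higher at 48 h in each line, from between 2136 and 2183 to between 2513 and 2637 CPM in EW8 and from between 1875 and 1896 to between 2376 and 2476 CPM in TC71. Without the 3 shared genes (BLM, EXO1 and RAD51AP1), 19 of 38 members went up and 10 down in EW8, and 26 up and 2 down in TC71. In these bulk libraries fewer cells in a phase and less RNA per cell cannot be told apart, and the part of cell cycle phase in the members' changes was not tested.

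**Figure D4:**
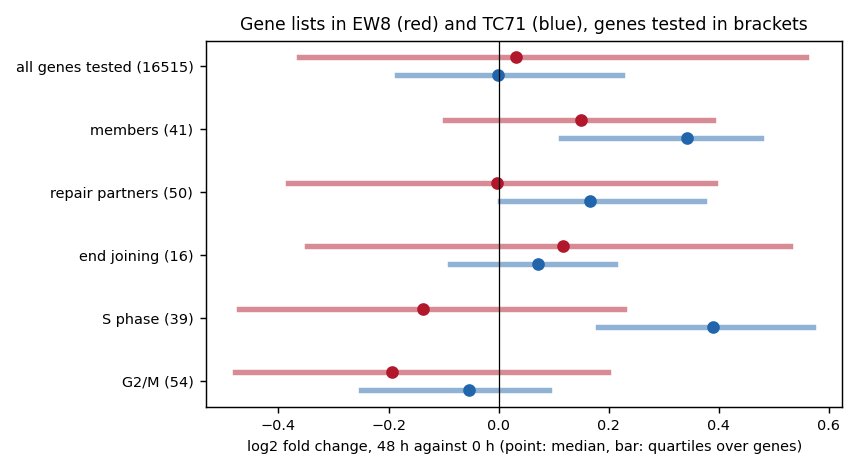
Log2 fold change (48 h against 0 h) of all genes tested and of 5 gene lists in EW8 (red) and TC71 (blue); points are medians over genes and bars run between the quartiles. The members have a median of 0.15 in EW8 and 0.34 in TC71, and the S-phase list lies at -0.14 in EW8 and 0.39 in TC71.

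RefSeq promoter windows were given for 36 of the 41 members, in 48 windows. An E2F word (TTTCCCGC, TTTCGCGC, TTTGCCGC or TTTGGCGC, either strand) was in 6 of these 48 windows (12.5%) and in 3.31% of all 35116 windows. The 7 matches, in capitals within 30 bases along the gene, were the following.
EXO1, chr1:241848197-241848226, plus strand: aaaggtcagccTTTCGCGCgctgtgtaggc
FANCA, chr16:89816801-89816830, minus strand: actacaccgcgGCGGCAAAgccaaacgcaa
FANCC, chr9:95317863-95317892, minus strand: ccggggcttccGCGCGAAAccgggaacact
FANCC, chr9:95317737-95317766, minus strand: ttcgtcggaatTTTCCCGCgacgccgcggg
FANCD2, chr3:10026424-10026453, plus strand: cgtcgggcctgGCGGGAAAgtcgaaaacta
REV3L, chr6:111483288-111483317, minus strand: ctctcgctcctTTTCCCGCcgagccccctc
XRCC2, chr7:152676102-152676131, minus strand: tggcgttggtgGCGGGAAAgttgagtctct
The 6 genes did not move alike: in EW8 EXO1, FANCD2 and REV3L rose, FANCC and XRCC2 fell and FANCA was not called, and in TC71 EXO1, FANCA, FANCD2 and XRCC2 rose. CHR letters (TTTGAA) were in 5 of 48 windows (10.4%) and 15.2% of all, in BRIP1, FANCC, HELQ and POLQ. CCAAT letters were in 16 windows (33.3%) and 34.6% of all. The AP-1 letters TGACTCA were in 0 of 48 windows and in 4.95% of all. A match of letters is a description of these windows, not a measured binding site.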

How the data were processed

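PolyA-selected RNA was sequenced as paired-end reads of 100 bases. According to the study's methods and the submitters' processing notes, reads were checked with FastQC and aligned to hg38 with STAR. The counting tool, its annotation and its strand setting are not given in the sources used here. The authors deposited 1 table of raw counts per gene for all 12 libraries, with no normalization. Totals of 18468485 to 35698991 counts set the precision, and the fit left 8 residual degrees of freedom. The quasi-likelihood test also borrowed information on the spread across all genes tested, so its p-values do not rest on these 8 alone.

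Tests on the deposited counts used edgeR 4.0.16 under R 4.3.3 (TMM, filterByExpr with a minimum count of 10 and a minimum total count of 15, robust quasi-likelihood fit over the 4 groups). Each line's 48 h libraries were compared with its 0 h libraries, these 2 responses with each other, and EW8 with TC71 at 0 h. Benjamini-Hochberg adjustment ran over all 16515 genes. CPM are counts divided by the TMM-scaled library size in units of 1000000, and levels per kilobase use GENCODE 44 exon unions, as do gene coordinates on hg38. Figures used matplotlib 3.10.9 (Python 3.11.15). The S-phase and G2/M lists come from Seurat 5.3.0. Scripts were tested on simulated data. Promoter windows are from RefSeq on GRCh38.p14. DESeq2 1.42.0, other scalings and filters, and leaving out each library in turn were alternatives. The members and lists were chosen with earlier results of these data known, and 1 gene of the partner list is not reported here. Genes described by library were those past 2-fold, the 2 largest called changes of each role in each line, and the 5 smallest p-values for the difference and at 0 h. The reported fit had no replicate block, which was run as an alternative.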

Additional observations from a re-analysis of the deposited data

Results flagged for a closer look

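The change after 48 h differed between the 2 lines for 28 of the 41 members, by edgeR's test of the difference of the 2 responses (adjusted p below 0.05, where 48.1% of all genes passed). Values are the EW8 log2 fold change minus that of TC71. The response was lower in EW8 for RAD51D (-0.875), FANCE (-0.641), FANCF (-0.625), SLX4 (-0.618), BLM (-0.568), FANCG (-0.489), FANCA (-0.455), XRCC2 (-0.438), FANCL (-0.407), RBBP8 (-0.392), FANCI (-0.382), RAD54L (-0.359), SMARCAL1 (-0.359), FANCD2 (-0.334), RECQL4 (-0.333), FANCB (-0.33), NBN (-0.325), FANCC (-0.294), POLH (-0.279), BARD1 (-0.278), BRCA2 (-0.246) and MRE11 (-0.184). It was higher in EW8 for HELQ (0.882), RAD52 (0.587), FANCM (0.477), REV3L (0.453), POLQ (0.451) and WRN (0.286). The calls of MRE11, BRCA2, FANCB, RECQL4 and POLH were lost on leaving out single libraries and with total counts alone. With total counts alone their edgeR adjusted p was 0.173 (MRE11), 0.0815 (BRCA2), 0.0772 (FANCB), 0.112 (RECQL4) and 0.0702 (POLH), and RAD54B, MUS81 and RAD18 were called higher in EW8 (0.0309, 0.0111 and 0.0213). Other settings added calls: MUS81 was called higher in EW8 without EW8 0 h replicate 2, EW8 48 h replicate 2, TC71 0 h replicate 1 or TC71 48 h replicate 1 (edgeR adjusted p between 0.0409 and 0.0454). RAD51C was called lower without EW8 0 h replicate 1 or 2 or TC71 48 h replicate 1 (edgeR adjusted p between 0.0231 and 0.0491), with upper-quartile factors (0.0482) and with at least 10 counts in every library (0.0338), and PALB2 was called lower without EW8 0 h replicate 2 (0.0359). MRE11 lost its call without EW8 48 h replicate 2, TC71 0 h replicate 1 or TC71 48 h replicate 2 or 3 (edgeR adjusted p between 0.0504 and 0.0751). FANCB lost it without EW8 0 h replicate 3, TC71 0 h replicate 3 or TC71 48 h replicate 2 (edgeR adjusted p between 0.0564 and 0.068). BRCA2 and POLH lost it without EW8 48 h replicate 3 (edgeR adjusted p = 0.0552 and 0.0555), and RECQL4 without EW8 48 h replicate 2 (0.0576).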

How the results depend on the processing

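No call among the members turned to the opposite direction under any alternative. Of 31 members called in each line, 24 in EW8 and 24 in TC71 kept their call in every one of the 21 alternatives that kept the threshold. Requiring 2-fold left 2 members risen and 0 fallen in EW8, 0 risen and 0 fallen in TC71, 0 with the higher and 0 with the lower response in EW8, and 0 higher and 1 lower in EW8 at 0 h. Total counts alone gave 6 fallen in EW8, 1 fallen in TC71 and 18 lower in EW8 at 0 h. An adjusted p below 0.01 gave 1 fallen in TC71. The replicate block gave 19 risen and 9 fallen in EW8, 28 risen and 1 fallen in TC71, and 6 higher and 21 lower responses in EW8, and the member calls it lost were PALB2, FANCG and EME1 in EW8 (edgeR adjusted p = 0.0713, 0.11 and 0.0726), MRE11 and NBN in TC71 (0.0628 and 0.0591) and MRE11 in the difference (0.0781). The labels link the 0 h and 48 h libraries only by a number. Same-numbered libraries of a line had deviations from their group means correlated between -0.138 and -0.0147. Of 6 libraries at 0 h, 0 correlated best with its own number at 48 h. These correlations cannot decide whether the cultures were paired. The block was not run for the comparison at 0 h. Leaving out single libraries gave 18 to 21 risen and 8 to 12 fallen in EW8, 25 to 29 risen and 1 to 3 fallen in TC71, 6 to 7 higher and 20 to 24 lower responses in EW8, and 17 to 19 higher and 7 to 10 lower in EW8 at 0 h. The single fall in TC71 came without TC71 0 h replicate 1, TC71 0 h replicate 3 or TC71 48 h replicate 1, which cost the call of NBN. For repair partners, leaving out single libraries gave 16 to 19 risen and 18 to 21 fallen in EW8, and 23 to 28 risen and 3 to 4 fallen in TC71. The cause of these shifts was not tested. Over all 12 libraries RAD51D, RAD51B and FANCF had the fewest counts of the members, and their standard errors were the widest in each line.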

Other observations

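End joining, the route that rejoins breaks without a template, was examined through 17 genes, of which 16 were tested. In EW8 8 rose and 5 fell, with a median log2 fold change of 0.12, and in TC71 4 rose and 3 fell, with a median of 0.07. The falls in EW8 were 31.2% of the 16 and those in TC71 18.8%, beside 31.6% and 19.2% of all genes, and 37.0% (EW8) and 22.9% (TC71) of all genes rose. The Ku subunit genes XRCC5 and XRCC6 fell in EW8 (log2 -0.72 and -0.87) and by less in TC71 (-0.14 and -0.20). SHLD2, a shieldin subunit that limits resection, fell in EW8 (-0.88) and TC71 (-0.35). APLF, a Ku-binding scaffold, rose in EW8 (2.18) and TC71 (0.42). POLL, polymerase lambda, rose in EW8 (1.06) and was not called in TC71 (-0.07). These genes were picked from the list after their values were seen.

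The members span long stretches of genome, with a median of 75563 bases against 26444 over all annotated genes tested. Across the 41 members, which share the same libraries, span and log2 fold change had a Spearman correlation of 0.22 (EW8) and 0.09 (TC71), against 0.12 and 0.11 over all genes. Head-to-head neighbours starting nearby on the opposite strand were tested for 18 members. In EW8 both genes of a pair rose in 4 pairs, both fell in 1 and they went opposite ways in 6, and in TC71 both rose in 3 and they went opposite ways in 3, of 18 pairs. Over all 935 head-to-head pairs of tested genes, starting within 1000 bases, both rose in 16.0%, both fell in 12.4% and they went opposite ways in 22.0% in EW8, and in 7.81%, 6.10% and 7.06% in TC71.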
